A study of Mus musculus with 42 samples.

Results

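Enzalutamide (ENZA), an antiandrogen drug, was added to chronic corticosterone (CORT), the main glucocorticoid of mice, and liver mRNA was compared between mice given both drugs and mice given CORT alone. The comparison used 12 of the 42 liver libraries of the study. These were the 6 chronic CORT+ENZA mice (numbers 4, 5, 6, 16, 17 and 18) and the 6 chronic CORT mice (numbers 1, 2, 3, 25, 26 and 27), chosen by their labels. All were male C57B6/J mice, both groups were exposed to CORT, and neither carried a genetic change that the labels name. The labels give each library as its own mouse. The 6 chronic vehicle mice show the level without either drug, and the acute CORT and CORT+ENZA mice (6 each) serve for a comparison of the same drug addition over another duration. The 42 libraries hold no chronic group on ENZA alone, so the effect of ENZA without CORT has no chronic counterpart below. The sources used here do not give doses, routes, days of treatment or age. The question was whether blocking androgen action changes what a chronic glucocorticoid does in the liver.

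Glucocorticoids bind the glucocorticoid receptor, which in liver switches on genes of glucose production, amino acid breakdown and lipid handling. Androgens, with the male pattern of growth hormone release, set many sex-biased liver genes. Hepatocytes also carry the nuclear receptors CAR and PXR, which sense drugs and switch on cytochrome P450 oxidases, conjugating enzymes and export pumps. In humans ENZA is known as a strong inducer of such enzymes. Cholesterol synthesis is driven by the transcription factor SREBP2, and interferon-stimulated genes by a complex that holds STAT2 and IRF9, which binds a promoter element called ISRE.

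The broadest changes were in drug metabolism, cholesterol synthesis and interferon-stimulated genes, which were higher in CORT+ENZA mice. Some genes of plasma proteins and of fatty acid and triglyceride synthesis were lower. Of 13099 genes tested with edgeR's quasi-likelihood test, 1552 (11.8%) differed at a Benjamini-Hochberg adjusted p under 0.05. Of these, 916 (6.99%) were higher and 636 (4.86%) lower in CORT+ENZA. The change was at least 2-fold for 351 genes that were higher (2.68%) and 100 that were lower (0.763%). In 814 genes (6.21%) the values of both groups did not overlap. These percentages are the background against which the counts of each gene list below are read. The lists were chosen with earlier results of these data known, so their counts are descriptions and not independent tests. The median log2 fold change over all genes tested was -0.003.

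The 12 libraries held 16200868 to 19581723 gene counts and 18227 to 19740 detected genes. Every level is in CPM, the counts divided by TMM-scaled library size. On the first principal component of the chronic libraries CORT+ENZA mouse 18 lay at 16.0 and the other 5 at -20.9 to -9.7, so each result below was recomputed without it. The 10 most abundant genes took 16.3 ± 0.92% of counts in CORT+ENZA and 19.5 ± 0.98% in CORT (SD, n = 6, 2-sided exact permutation p = 0.00216, adjusted over 9 library measures 0.0195). All 10 hepatocyte markers were well detected, and their summed level was 74939 to 93785 CPM (median 85307) in CORT+ENZA, below the 106868 to 138205 CPM (median 115338) in CORT. That sum is dominated by Alb, the albumin gene. In whole liver, fewer cells of a type and less RNA per cell cannot be told apart.

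**Figure D1:**
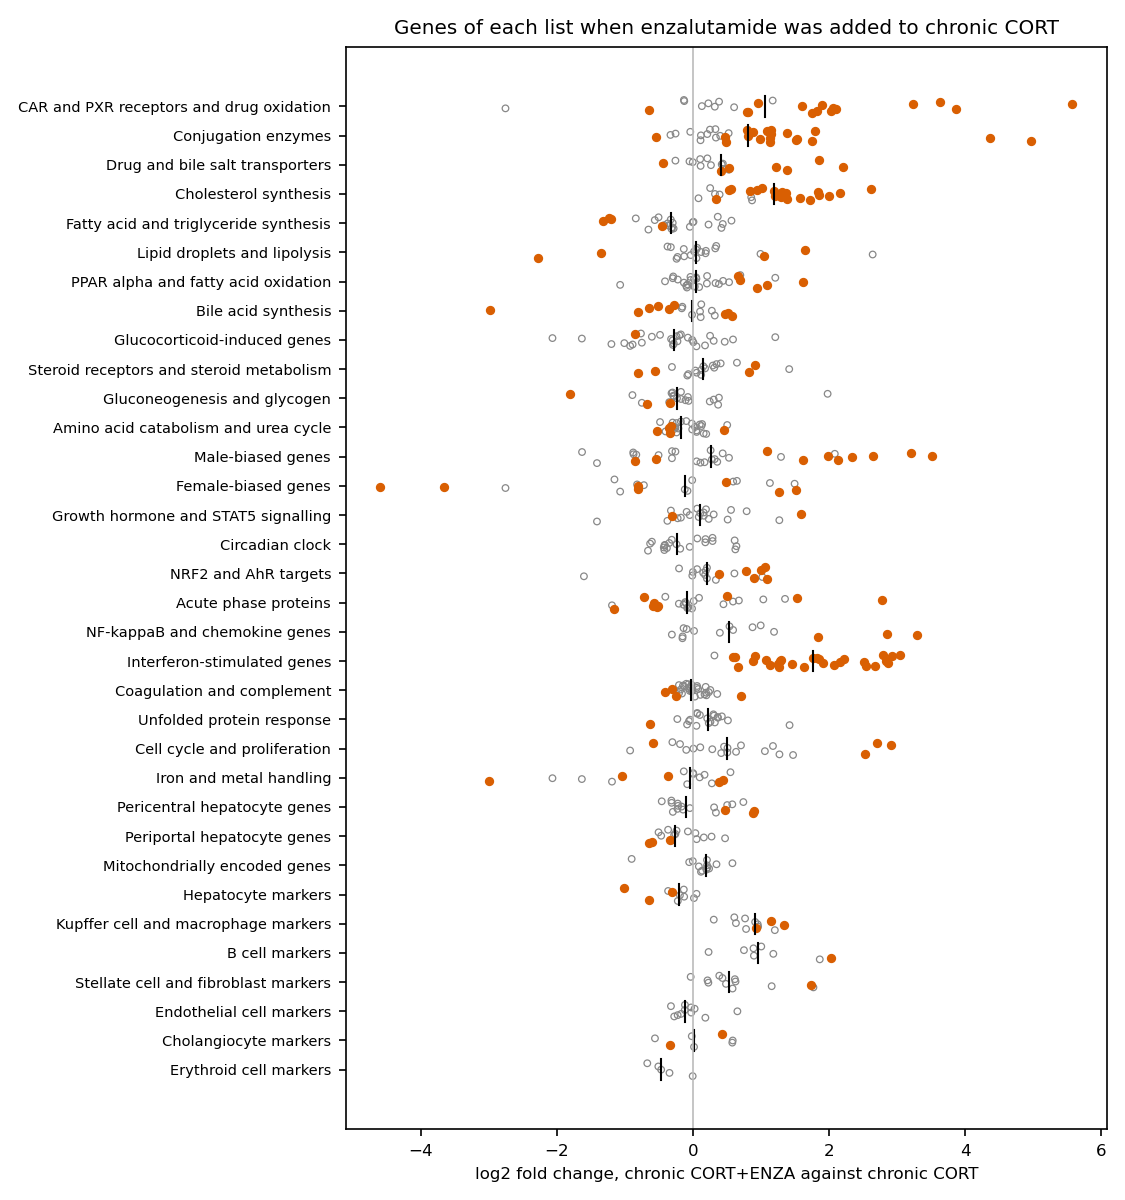
Log2 fold change (horizontal axis, CORT+ENZA over CORT) of each tested gene in every list with at least 5 tested genes (vertical axis). Filled points passed an adjusted p of 0.05, open points did not, and bars mark list medians. The interferon-stimulated, cholesterol synthesis and CAR and PXR lists sit furthest to the right, with medians of 1.76, 1.20 and 1.06.

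Oxidases and esterases of the CAR and PXR list were higher in CORT+ENZA. Of 24 tested genes 14 rose, 1 fell and 9 did not pass, with a median log2 fold change of 1.06 and 13 genes without overlap. Cyp2c55, a P450 of drug and fatty acid oxidation (ENSMUSG00000025002, chromosome 19, 39007019 to 39042693 in GRCm38), was at 0.779 to 2.22 CPM (median 0.975) in CORT and 40.7 to 87.5 CPM (median 56.7) in CORT+ENZA. It rose by 5.58 ± 0.29 on the log2 scale (SE, adjusted p = 7.46e-10), and no CORT+ENZA mouse came near the CORT range. With CORT alone it was lower than in vehicle (log2 fold change -1.34, adjusted p = 0.00581).

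Cyp2b10, the classic CAR target (ENSMUSG00000030483, chromosome 7, 25897620 to 25926624), was at 0.458 to 1.49 CPM (median 0.718) in vehicle, 24.3 to 96.8 CPM (median 55.5) in CORT and 437 to 1065 CPM (median 903) in CORT+ENZA. The 3 groups formed 3 separate steps. It was higher in CORT than in vehicle by 6.18 (adjusted p = 1.13e-08), and higher in CORT+ENZA than in CORT by 3.86 ± 0.29 (adjusted p = 1.25e-07). Cyp3a11, the main PXR-induced oxidase (ENSMUSG00000056035, chromosome 5, 145854426 to 145879964), went from 723 to 2877 CPM (median 1276) in CORT to 12043 to 16753 CPM (median 13235) in CORT+ENZA. Every mouse on both drugs lay above every CORT mouse, at a log2 fold change of 3.24 ± 0.27 (adjusted p = 2.72e-07). Cyp2c29, another CAR-responsive P450, was at 1032 to 1526 CPM (median 1356) and 4988 to 5825 CPM (median 5506), and its change of 2.06 ± 0.11 (adjusted p = 7.46e-10) had among the smallest errors of the list.

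The remaining risen genes included Alas1, the rate-limiting enzyme of the heme that P450s need, by 1.75 ± 0.36 (adjusted p = 0.00444). The liver carboxylesterase genes Ces2a and Ces2c rose by 2.03 ± 0.12 and 1.82 ± 0.22 (adjusted p = 8.39e-10 and 3.73e-05), and their relative Ces2e fell by 0.65 ± 0.10 (adjusted p = 0.000353). Of the 50-base stretches of their transcripts, 22.2% for Ces2a and 42.2% for Ces2c also occur in another gene, so their single values are uncertain. The same holds for Cyp3a59, Cyp2a5, Cyp2c54, Cyp2c50 and Cyp3a25, which rose by 3.63, 2.10, 1.90, 1.60 and 0.95. The retinal dehydrogenase genes Aldh1a1 and Aldh1a7 rose by 0.80 and 0.79.

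The receptor genes themselves did not pass the test. Nr1i3, which encodes CAR, was at 186 to 279.8 CPM (median 252) in CORT and 118 to 296 CPM (median 227) in CORT+ENZA (log2 fold change -0.13 ± 0.25, adjusted p = 0.80). Nr1i2, which encodes PXR, differed by 0.38 ± 0.17 (adjusted p = 0.163, and 0.0386 to 0.316 over 22 alternatives, 3 of which called it). Por, the electron donor of all microsomal P450s, was at 210.4 to 479 CPM (median 299) and 411 to 956 CPM (median 776). Its groups overlapped and its difference of 1.17 ± 0.41 did not pass (adjusted p = 0.0749), although it passed in 5 of 22 alternatives, over which the adjusted p ranged over 0.00498 to 0.184. Beside these values, 9 of the 24 genes were higher and 1 lower in CORT than in vehicle (background 9.04% and 9.29%). In CORT+ENZA 20 were higher and 1 lower than in vehicle (background 10.3% and 8.29%), from the same vehicle libraries.

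**Figure D2:**
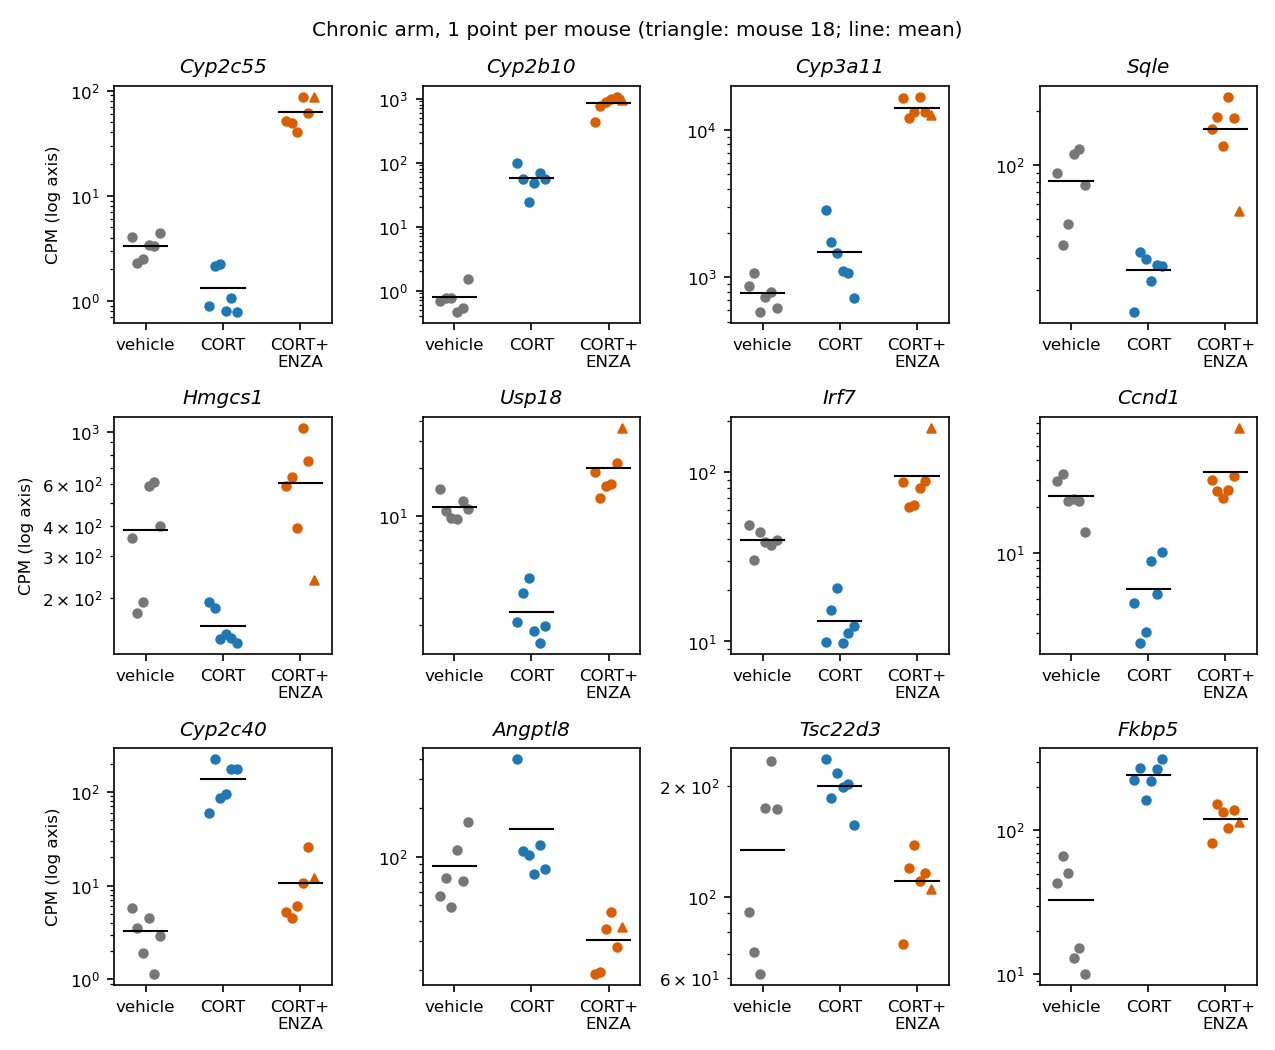
Level of 12 genes in each chronic mouse (vertical axis, CPM, log scale) for vehicle, CORT and CORT+ENZA. Each point is a mouse, triangles mark CORT+ENZA mouse 18 and lines mark group means. Cyp2b10 climbs in separate steps over the 3 groups, whereas Usp18, Irf7 and Ccnd1 are low only in CORT, and Cyp2c40 is high only in CORT.

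Conjugating enzymes, which attach glutathione, glucuronic acid or sulfate to drugs and steroids, followed with 18 of 30 tested genes risen, 1 fallen and a median of 0.80. Among the glutathione transferases, Gstm3 went from 38.6 to 57.1 CPM (median 52.8) in CORT to 398 to 1934 CPM (median 924.5) in CORT+ENZA. The highest value was that of mouse 18, and even the lowest mouse on both drugs lay far above all CORT mice (log2 fold change 4.36 ± 0.38, adjusted p = 1.08e-06, 28.8% shared sequence and so uncertain). Gsta4 rose by 1.51 ± 0.20 (adjusted p = 7.56e-05) and Gstm4 by 1.13 ± 0.12 (adjusted p = 6.01e-06), neither with sequence shared at the 10% level. Gsta1, Gsta2 and Gstm1 rose by 4.96, 1.75 and 1.53, with 89.7, 64.2 and 23.1% shared sequence. Gsta1 was at 3.80 without mouse 18 (adjusted p = 3.63e-06). Gstp1 was the enzyme that fell, by 0.55 ± 0.15 (adjusted p = 0.023, 62.3% shared). That call was lost in 4 of 22 alternatives (adjusted p over all of them 0.00136 to 0.0692), 4 of them without mouse 6, 17, 25 or 27 (0.0542 to 0.0692).

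Ugt2b35, a glucuronosyltransferase with little shared sequence, was at 148 to 198 CPM (median 169) in CORT and 334 to 406 CPM (median 375) in CORT+ENZA. The groups were well apart (log2 fold change 1.14 ± 0.08, adjusted p = 7.1e-09). Papss2, which makes the sulfate donor for sulfotransferases, rose by 1.15 ± 0.16 (adjusted p = 0.000111), from 72 to 163 CPM (median 133) to 189.6 to 336 CPM (median 279.7). In vehicle it was at 223 to 273 CPM (median 257), so CORT mice were low and mice on both drugs near vehicle. Ephx1, the microsomal epoxide hydrolase, rose by 1.13 ± 0.21 (adjusted p = 0.00143).

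Of 18 drug and bile salt transporters 6 rose and 1 fell (median 0.41). Abcc3, an export pump of the basolateral membrane for conjugates (ENSMUSG00000020865, chromosome 11, 94343295 to 94392997), was at 42.8 to 92.3 CPM (median 56.8) in CORT, 236 to 322 CPM (median 268) in CORT+ENZA and 73.7 to 133 CPM (median 93.1) in vehicle. CORT mice overlapped the low end of vehicle and mice on both drugs exceeded both other groups (log2 fold change 2.20 ± 0.17 against CORT, adjusted p = 1.63e-07). Slco1a4, an uptake carrier, rose by 1.85 ± 0.32 (adjusted p = 0.00107). Abcc2 and the bile salt export pump gene Abcb11, both of the canalicular membrane, rose by 0.53 ± 0.16 and 0.41 ± 0.12 (adjusted p = 0.0316 and 0.0278). Slc10a1, the sodium-dependent bile salt uptake carrier, fell by 0.44 ± 0.14 (adjusted p = 0.0432). The Abcc2 call was lost in 9 of 22 alternatives (adjusted p over all of them 0.0026 to 0.0679), 8 of them without mouse 1, 2, 3, 5, 6, 16, 17 or 27 (0.0517 to 0.0679). The Abcb11 call was lost in 5 of 22 alternatives (adjusted p over all of them 0.000861 to 0.0614), 5 of them without mouse 2, 3, 16, 17 or 26 (0.0514 to 0.0614). The Slc10a1 call was lost in 9 of 22 alternatives (adjusted p over all of them 0.0147 to 0.0812), 7 of them without mouse 2, 3, 5, 16, 17, 26 or 27 (0.0512 to 0.0812).

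Most of the pathway from acetyl-CoA to cholesterol was higher in CORT+ENZA. Of 25 tested genes 19 rose, none fell and the median was 1.20. In 5 of them the groups did not overlap, and mouse 18 was the lowest CORT+ENZA mouse for 24 of the 25. Promoters of 17 of these genes were found in the RefSeq table (GRCm38.p6, 250 bases before the annotated start). The CCAAT box (letters CCAAT, both strands), which the factor NF-Y binds, stood in 15 of the 17 (88.2%) against 36.8% of 9058 promoters of tested genes. An SREBP site core (CACCCCAC, both strands) stood in 2 (11.8%) against 2.62%. The promoters of the 3 genes with the largest increases among those with a match are printed to show these boxes, with CCAAT or its reverse ATTGG in capitals, on chromosome 8 (64733579 to 64733828, minus strand) for Msmo1, chromosome 13 (119690101 to 119690350, plus strand) for Hmgcs1 and chromosome 13 (8885356 to 8885605, plus strand) for Idi1.
Msmo1: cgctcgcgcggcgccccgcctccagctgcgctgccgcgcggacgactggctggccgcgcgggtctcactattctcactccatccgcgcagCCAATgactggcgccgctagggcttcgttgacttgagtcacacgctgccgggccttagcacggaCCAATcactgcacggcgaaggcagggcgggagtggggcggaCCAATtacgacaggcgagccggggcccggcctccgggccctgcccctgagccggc
Hmgcs1: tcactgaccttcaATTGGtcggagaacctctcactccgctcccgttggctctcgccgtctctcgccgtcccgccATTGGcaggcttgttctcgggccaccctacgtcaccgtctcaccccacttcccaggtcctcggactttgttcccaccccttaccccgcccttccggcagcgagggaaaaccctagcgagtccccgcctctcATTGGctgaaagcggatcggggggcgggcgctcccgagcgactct
Idi1: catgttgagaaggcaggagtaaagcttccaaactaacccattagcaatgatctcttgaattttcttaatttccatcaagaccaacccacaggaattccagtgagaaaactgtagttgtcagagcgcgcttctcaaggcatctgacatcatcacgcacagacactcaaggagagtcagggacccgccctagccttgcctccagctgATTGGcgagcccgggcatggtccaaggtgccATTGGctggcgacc

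Hmgcs1, which makes HMG-CoA, was at 129 to 192 CPM (median 138) in CORT and 238 to 1037 CPM (median 618) in CORT+ENZA (chromosome 13, 119690379 to 119708260). Its groups did not overlap, mouse 18 at 238 CPM being the lowest on both drugs (log2 fold change 2.00 ± 0.34, adjusted p = 0.000949). Sqle, the squalene epoxidase gene and the largest change of the list (chromosome 15, 59315077 to 59331192), went from 15 to 32.6 CPM (median 27.3) to 55.1 to 239 CPM (median 170.5). The groups stood apart, with mouse 18 at 55.1 and the other 5 at 128 to 239 CPM (log2 fold change 2.61 ± 0.34, adjusted p = 7.55e-05).

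The later enzymes rose with them. Msmo1, the sterol C4 oxidase, rose by 2.16 ± 0.30, Cyp51, the lanosterol demethylase, by 1.73 ± 0.26, Dhcr7 by 1.38 ± 0.25 and Lss, the lanosterol synthase, by 1.36 ± 0.29 (adjusted p = 0.00012, 0.000232, 0.00154 and 0.00568). Idi1 and Fdft1 rose by 1.85 and 1.58 but share 21.3 and 10.9% of their sequence with other genes. Srebf2, which encodes SREBP2 itself, rose by 0.56 ± 0.13 (adjusted p = 0.0077). Insig1, the SREBP retention protein, differed by 0.39 ± 0.22 and did not pass (adjusted p = 0.265). In CORT 1 gene of the list was higher and 11 lower than in vehicle. In CORT+ENZA 9 were higher and 1 lower than in the same vehicle mice. Sqle was at 35.7 to 123 CPM (median 83.3) in vehicle, above CORT and overlapping CORT+ENZA.

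Almost the whole list of interferon-stimulated genes was higher in CORT+ENZA. Of 29 tested genes 28 rose, 24 without overlap, and the median was 1.76. Stat2 alone did not pass (log2 fold change 0.31 ± 0.13, adjusted p = 0.116, and 0.0383 to 0.24 over 22 alternatives, 1 of which called it). Mouse 18 was the highest CORT+ENZA mouse for 28 of the 29. Promoters were found for 22 of the genes. The ISRE core, searched on both strands as GAAA and GAAA (or TTTC and TTTC) with any 2 bases between them, stood in 12 of them (54.5%) against 2.7% of the promoters of tested genes. The 3 genes with the largest increases among those with a match are printed with the ISRE core in capitals, on chromosome 12 (26456453 to 26456702, minus strand) for Rsad2, chromosome 19 (34640639 to 34640888, plus strand) for Ifit1 and chromosome 3 (142559794 to 142560043, plus strand) for Gbp3, where 2 matches overlap.
Rsad2: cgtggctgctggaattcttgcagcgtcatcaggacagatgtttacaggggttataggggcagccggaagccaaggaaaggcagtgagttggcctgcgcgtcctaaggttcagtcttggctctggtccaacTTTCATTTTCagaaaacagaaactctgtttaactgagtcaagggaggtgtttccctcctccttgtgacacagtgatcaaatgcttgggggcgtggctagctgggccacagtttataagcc
Ifit1: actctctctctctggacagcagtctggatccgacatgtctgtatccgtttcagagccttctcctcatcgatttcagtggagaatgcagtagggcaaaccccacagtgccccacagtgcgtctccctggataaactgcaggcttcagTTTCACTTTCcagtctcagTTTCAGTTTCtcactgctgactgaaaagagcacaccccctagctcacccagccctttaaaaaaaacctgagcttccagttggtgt
Gbp3: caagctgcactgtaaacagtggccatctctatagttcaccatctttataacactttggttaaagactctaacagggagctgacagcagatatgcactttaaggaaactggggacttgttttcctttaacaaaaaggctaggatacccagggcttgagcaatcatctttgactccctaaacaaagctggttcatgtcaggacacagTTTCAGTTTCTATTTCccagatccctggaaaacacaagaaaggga

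Usp18, which removes the ubiquitin-like protein ISG15 and damps interferon receptors (ENSMUSG00000030107, chromosome 6, 121245906 to 121270917), was at 9.45 to 14.8 CPM (median 10.9) in vehicle, 1.54 to 4.01 CPM (median 2.04) in CORT and 12.9 to 36.3 CPM (median 17.4) in CORT+ENZA. CORT mice lay below both other groups, which overlapped (log2 fold change 3.04 ± 0.26 for CORT+ENZA over CORT, adjusted p = 4.28e-07). Irf7, the factor that amplifies interferon production (chromosome 7, 141262706 to 141266481), was at 30.3 to 49 CPM (median 39), 9.76 to 20.6 CPM (median 11.8) and 62 to 183 CPM (median 84.1) in the same order. Here every mouse on both drugs exceeded every vehicle mouse as well, and mouse 18 was the highest (log2 fold change 2.83 ± 0.26 over CORT, adjusted p = 1.37e-06).

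The antiviral effectors Rsad2 and Ifit1 rose by 2.92 ± 0.34 and 2.87 ± 0.32 (adjusted p = 2.44e-05 and 1.55e-05). The nucleic acid sensors Zbp1 and Ifih1 rose by 2.80 ± 0.30 and 1.25 ± 0.11 (adjusted p = 5.64e-06 and 3.1e-07), and the guanylate-binding protein gene Gbp3 by 2.54 ± 0.30 (adjusted p = 2.44e-05). Irf9, the DNA-binding partner of STAT2, rose by 0.88 ± 0.11 (adjusted p = 2.44e-05), with CORT at 15.6 to 28.4 CPM (median 20.7) and CORT+ENZA at 36.4 to 42.8 CPM (median 38). Psmb8, an immunoproteasome subunit, rose by 0.61 ± 0.12 (adjusted p = 0.00263). The interferon-induced chemokine genes Cxcl9 and Cxcl10 rose by 2.86 ± 0.61 and 3.29 ± 0.55 (adjusted p = 0.00554 and 0.000665). Cxcl10 was low throughout, at 0.157 to 1.14 CPM (median 0.343) and 1.42 to 14.2 CPM (median 2.64). In CORT 23 of the 29 genes were lower and none higher than in vehicle. In CORT+ENZA 13 were higher and none lower than in the same vehicle mice.

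A few markers of immune cells rose as well, and most did not pass. All 12 Kupffer cell and macrophage markers had a log2 fold change above 0 (median 0.92), and 3 passed. These were Cd5l, by 1.33 ± 0.40, Lyz2, by 1.14 ± 0.28, and C1qb, by 0.92 ± 0.27 (adjusted p = 0.0392, 0.0148 and 0.0375). The Cd5l call was lost in 13 of 22 alternatives (adjusted p over all of them 0.0117 to 0.105), 8 of them without mouse 1, 2, 3, 17, 18, 25, 26 or 27 (0.0555 to 0.0908). The C1qb call was lost in 9 of 22 alternatives (adjusted p over all of them 0.00655 to 0.11), 6 of them without mouse 1, 3, 17, 25, 26 or 27 (0.053 to 0.0751), and Lyz2, with 15.4% shared sequence, was lost without a low-count filter (0.0503; 0.000612 to 0.0503 over 22 alternatives). The summed level of the 12 markers was 148 to 249 CPM (median 208) in CORT, 236 to 928 CPM (median 297) in CORT+ENZA and 173 to 528 CPM (median 376) in vehicle, with mouse 18 highest. Clec4f, which Kupffer cells alone express in liver, was at 29.1 to 56.1 CPM (median 38.9) and 35.9 to 124 CPM (median 53.3), overlapping (adjusted p = 0.172). Among 8 tested B cell markers Cd22 rose (2.02 ± 0.53, adjusted p = 0.0182), and the list sum of 5.55 to 22.2 CPM (median 7.67) in CORT and 6.82 to 58.3 CPM (median 8.94) in CORT+ENZA overlapped. Of the 4 tested neutrophil and monocyte markers Ccr2 rose (2.14 ± 0.57, adjusted p = 0.0195), from a sum of 1.79 to 4.29 CPM (median 2.5) to 2.74 to 11.7 CPM (median 3.56), and Ly6g had at most 1 count in any of the 12 mice. Of 10 T and NK cell markers 2 were tested. Ccl5 rose by 1.84 ± 0.52 (adjusted p = 0.0267), a call lost in 4 of 19 alternatives (adjusted p over all of them 0.0051 to 0.0656), 3 of them without mouse 1, 18 or 25 (0.0597 to 0.0656), and Cd4 had a log2 fold change of -0.72 ± 0.39 and did not pass (adjusted p = 0.249, and 0.035 to 0.418 over its alternatives). None of the 11 tested endothelial markers passed, and of 12 stellate cell markers Col3a1 rose (1.74 ± 0.52, adjusted p = 0.0392). The Col3a1 call was lost in 12 of 22 alternatives (adjusted p over all of them 0.00924 to 0.157), 6 of them without mouse 1, 2, 5, 18, 25 or 27 (0.0747 to 0.128). The part of these cells in the interferon-stimulated genes was not tested.

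Without mouse 18, the same count of 28 interferon-stimulated genes rose, with a median of 1.31, and the Kupffer median was 0.45. The log2 fold changes of Cxcl9 and Cxcl10 were then 1.78 and 2.48 (adjusted p = 0.00221 and 0.000142), and those of Usp18, Irf7 and Ifit1 2.78, 2.53 and 2.62. Cd22 was at 1.25 (adjusted p = 0.0476). Cd5l, Col3a1 and Ccr2, at 0.68, 1.01 and 1.27, did not pass (adjusted p = 0.0908, 0.128 and 0.0549), and Cd4 was at -1.13 (adjusted p = 0.0564).

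**Figure D3:**
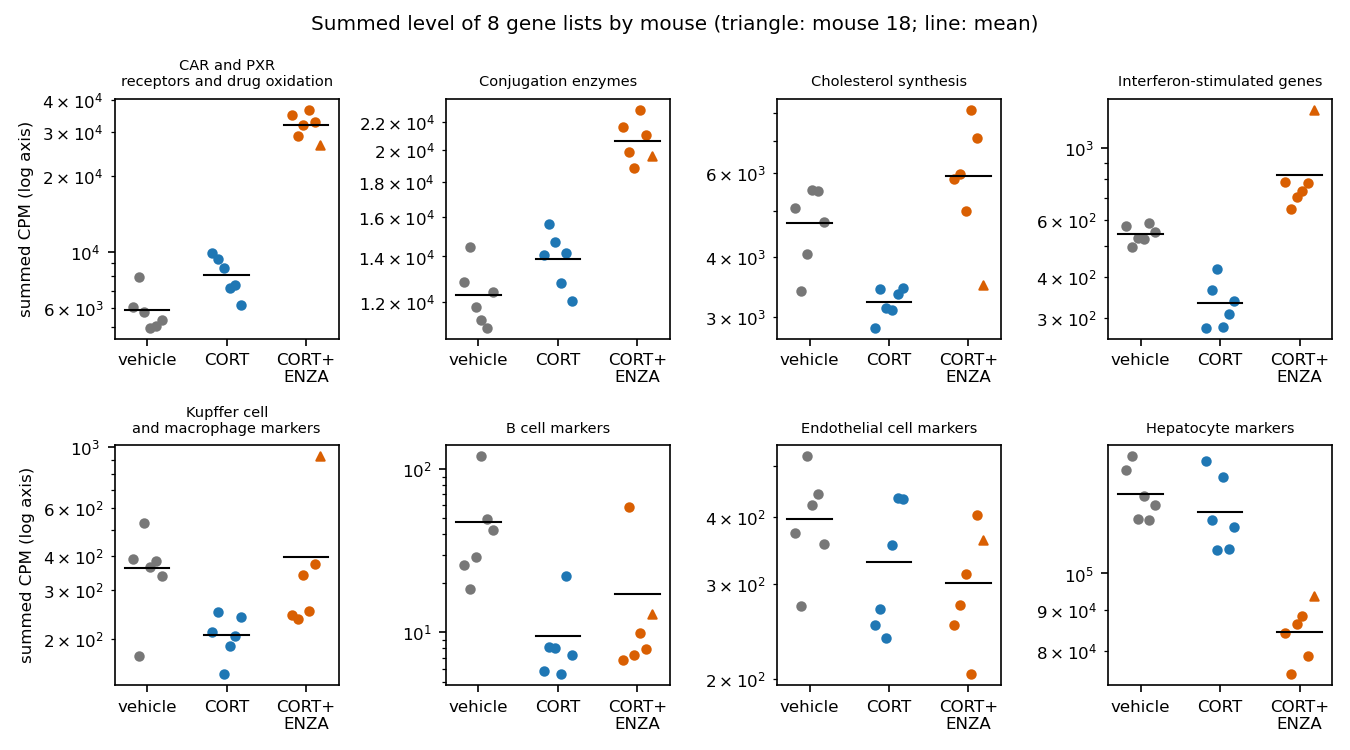
Summed level of 8 gene lists in each chronic mouse (vertical axis, CPM, log scale) for vehicle, CORT and CORT+ENZA, with triangles for mouse 18. The interferon-stimulated sum is 280 to 424 in CORT and 648 to 1309 in CORT+ENZA, and the Kupffer sum of mouse 18 (928) is far above that of every other mouse.

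Sex-biased genes moved in both directions. Of 30 male-biased genes 8 rose and 2 fell (median 0.27), and of 19 tested female-biased genes 3 rose and 4 fell (median -0.12). The female-biased P450 gene Cyp2c40 was at 1.14 to 5.75 CPM (median 3.22) in vehicle, 59.7 to 225 CPM (median 134) in CORT and 4.49 to 26 CPM (median 8.3) in CORT+ENZA. CORT mice stood far above both other groups (log2 fold change -3.66 ± 0.46 with ENZA added, adjusted p = 6.55e-05). Cyp2c69 changed alike, by -4.60 ± 0.52 (adjusted p = 2.35e-05), from 23.3 to 123 CPM (median 62.9) to 0.686 to 5.99 CPM (median 1.71). These genes share 72.1 and 54.8% of their sequence with others, so which copy the reads came from is uncertain. Without such overlap, Cyp17a1 and Cyp39a1, a steroid hydroxylase and an oxysterol hydroxylase, fell by 0.81 ± 0.24 and 0.82 ± 0.16 (adjusted p = 0.0363 and 0.00222). The Cyp17a1 call was lost in 8 of 22 alternatives (adjusted p over all of them 0.00834 to 0.0995), 7 of them without mouse 2, 4, 5, 16, 18, 26 or 27 (0.0594 to 0.0787). Sult1e1, the estrogen sulfotransferase, was at 0.0573 to 0.691 CPM (median 0.128) in vehicle and 8.42 to 79.7 CPM (median 37.6) in CORT, and with ENZA added it was at 23.1 to 86.5 CPM (median 62.7), overlapping CORT (adjusted p = 0.354).

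On the male side, Selenbp2 rose by 3.21 ± 0.58 (adjusted p = 0.00177), Cyp4a12a by 1.62 ± 0.22 and Cyp4a12b by 2.14 ± 0.24 (adjusted p = 9.45e-05 and 1.3e-05), all uncertain because of shared sequence (52, 48.9 and 49.4%). Cyp4a12a was at 53.2 to 129 CPM (median 87.8) in CORT and 169 to 386 CPM (median 284) in CORT+ENZA, without overlap. The classic male marker genes Cyp2d9 and Hsd3b5 and the pheromone carrier gene Mup20 did not pass, with log2 fold changes of 0.05 ± 0.18, -0.31 ± 0.46 and -0.51 ± 0.19 (adjusted p = 0.893, 0.724 and 0.0854). These 3 share 29, 21.2 and 50.5% of their sequence with other genes and are uncertain. Mup20 values were 4053 to 6498 CPM (median 4741) in CORT and 2243 to 4749.7 CPM (median 3466) in CORT+ENZA. Other Mup genes differed from Mup20. Without mouse 18, Mup1, Mup7, Mup12, Mup14 and Mup17 rose by 2.58, 2.34, 2.23, 2.87 and 3.74 (adjusted p = 0.00343, 0.0368, 0.0115, 0.00444 and 0.0148). Mup3, Mup11 and Mup21 did not pass then, at -0.71, 1.53 and -0.74 (adjusted p = 0.0742, 0.156 and 0.246). The sequence these genes share with others is not given here.

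A few genes of fatty acid and triglyceride synthesis were lower. In the fatty acid and triglyceride list 4 of 24 fell and none rose (median -0.32). Lpin1, the phosphatidate phosphatase, fell by 1.32 ± 0.33, Scd1, the stearoyl-CoA desaturase, by 1.24 ± 0.28, Pklr, the liver pyruvate kinase, by 1.20 ± 0.25 and Dgat2, which makes triglyceride, by 0.46 ± 0.10 (adjusted p = 0.0137, 0.00763, 0.00361 and 0.00434). The fatty acid synthase gene Fasn overlapped widely, at 518 to 1853 CPM (median 1299.9) and 645 to 1724 CPM (median 895) (adjusted p = 0.61). Other genes of triglyceride assembly did not pass in the fit without mouse 18. There Lpin2, Gpam, Dgat1 and Agpat2 had log2 fold changes of 0.63, 0.02, -0.008 and -0.33 (adjusted p = 0.0852, 0.939, 0.967 and 0.155). Of 22 tested genes of lipid droplets and lipolysis 2 rose and 2 fell (median 0.05). Angptl8, an insulin-induced regulator of lipoprotein lipase (chromosome 9, 21835510 to 21837347), was at 78.1 to 401 CPM (median 106) in CORT and 18.8 to 45.2 CPM (median 31.7) in CORT+ENZA. All mice on both drugs were below all CORT mice (log2 fold change -2.28 ± 0.42, adjusted p = 0.00204). The Angptl8 log2 fold change was -1.69 without CORT mouse 1 (adjusted p = 0.00145). G0s2, an inhibitor of the lipase ATGL, fell by 1.35 ± 0.35 (adjusted p = 0.0179), a call lost without a low-count filter (0.0521; 0.00281 to 0.0521 over 22 alternatives). Cd36, a fatty acid uptake protein, rose by 1.04 ± 0.23 (adjusted p = 0.00752). Lpl rose by 1.65 ± 0.47 (adjusted p = 0.0303), with mouse 18 at 82 and the other 5 at 11.5 to 47.4 CPM. The Lpl call was lost in 13 of 22 alternatives (adjusted p over all of them 0.00502 to 0.146), 8 of them without mouse 1, 2, 3, 5, 18, 25, 26 or 27 (0.0518 to 0.0866), and its log2 fold change was 1.03 without mouse 18. Of 8 adipocyte and mesothelium markers 6 were too low to test. The adipocyte markers Adipoq, Cfd and Plin1 reached 258, 265 and 119 counts in a CORT+ENZA library. In CORT they reached at most 37, 36 and 12. The part of fat tissue in Lpl and Cd36 was not tested.

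In bile acid synthesis 3 of 17 genes rose and 6 fell. Cyp8b1, the sterol 12-alpha-hydroxylase that makes cholic acid, was at 185 to 382 CPM (median 324) in vehicle, 28.1 to 242 CPM (median 51) in CORT and 3.19 to 37.2 CPM (median 8.37) in CORT+ENZA. The 2 CORT groups touched only through mouse 18, the highest on both drugs (log2 fold change -2.98 ± 0.65, adjusted p = 0.00643, and -3.69 without it, adjusted p = 0.00175). A term that split the 12 libraries into low and high mouse numbers ended that call (adjusted p = 0.0523, and 5.63e-05 to 0.0523 over 22 alternatives). Klb, the coreceptor of the ileal hormone FGF15, fell by 0.64 ± 0.09 and Nr1h4, the bile acid receptor FXR, by 0.51 ± 0.11 (adjusted p = 8.05e-05 and 0.00563). Akr1d1, Cyp27a1 and Cyp2c70, which shape the bile acid side chain and ring, rose by 0.57 ± 0.11, 0.47 ± 0.12 and 0.52 ± 0.16 (adjusted p = 0.00169, 0.0134 and 0.0362). The Cyp2c70 call was lost in 8 of 22 alternatives (adjusted p over all of them 0.0122 to 0.0866), 7 of them without mouse 1, 3, 4, 5, 6, 16 or 25 (0.054 to 0.0866). Cyp7a1, the rate-limiting enzyme, was at 12.4 to 181 CPM (median 71.6) and 78.1 to 120.1 CPM (median 97.2) and did not pass (adjusted p = 0.926).

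Of 21 genes of gluconeogenesis and glycogen 3 fell and none rose. Ppp1r3c, which targets a phosphatase to glycogen, went from 63 to 178 CPM (median 80.0) in CORT to 18.1 to 31 CPM (median 28.2) in CORT+ENZA. Both CORT and vehicle mice (72.1 to 151 CPM (median 97.3)) were entirely above mice on both drugs (log2 fold change -1.81 ± 0.23 against CORT, adjusted p = 6.39e-05). Fbp1, the fructose bisphosphatase, fell by 0.68 ± 0.08 (adjusted p = 1.01e-05), from 919 to 1133 CPM (median 1019.7) to 598 to 688 CPM (median 617). Pck1 and G6pc, the classic glucocorticoid-driven enzymes of glucose output, did not pass (log2 fold changes -0.08 ± 0.36 and -0.75 ± 0.38, adjusted p = 0.925 and 0.217), although 2 of 22 alternatives called G6pc (0.0101 to 0.372).

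Few direct glucocorticoid targets passed the test. Of 29 glucocorticoid-induced genes none rose and 1 fell, against backgrounds of 6.99% and 4.86%, and the median was -0.28. Only 8 of the 29 had a log2 fold change above 0. Their summed level had a median of 10745.5 CPM in CORT, 8626 in CORT+ENZA and 8207 in vehicle, with overlapping ranges. Against vehicle, 8 were higher and 1 lower in CORT (median 0.41, background 9.04% and 9.29%). In CORT+ENZA 6 were higher and none lower than in the same vehicle mice (median 0.12, background 10.3% and 8.29%). Tsc22d3, the glucocorticoid-induced leucine zipper, was at 156 to 236 CPM (median 200.4) in CORT and 74.6 to 138 CPM (median 113) in CORT+ENZA. The groups did not overlap, and it fell by 0.85 ± 0.27 (adjusted p = 0.0452), but that call was lost in 13 of 22 alternatives (adjusted p over all of them 0.000899 to 0.108), 10 of them without mouse 1, 2, 3, 4, 5, 16, 17, 18, 25 or 26 (0.0612 to 0.0894). Fkbp5, a cochaperone of steroid receptors, was at 10.00 to 66.1 CPM (median 29) in vehicle, 163 to 314 CPM (median 246) in CORT and 81.4 to 151 CPM (median 124) in CORT+ENZA. The 3 groups did not overlap, yet the difference of -1.01 ± 0.37 with ENZA added did not pass (adjusted p = 0.0853), while 3 of 22 alternatives called it (0.00143 to 0.189). Klf15 and Ppp1r3b likewise had separate groups and did not pass (log2 fold changes -0.30 ± 0.12 and -0.89 ± 0.33, adjusted p = 0.103 and 0.088), with adjusted p of 0.025 to 0.181 and 0.00159 to 0.19 over 22 alternatives.

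Among genes of steroid signalling, Nr3c1, which encodes the glucocorticoid receptor, was at 65.7 to 82.1 CPM (median 72.6) in CORT and 74.9 to 89.9 CPM (median 81.7) in CORT+ENZA and did not pass (log2 fold change 0.15 ± 0.08, adjusted p = 0.253). Hsd11b1, which regenerates active glucocorticoid inside hepatocytes, fell by 0.56 ± 0.12 (adjusted p = 0.0045), from 754 to 1078 CPM (median 862) to 409 to 705 CPM (median 615), without overlap. Serpina6, the plasma carrier of corticosterone, rose by 0.91 ± 0.21 (adjusted p = 0.00983). It was at 31.7 to 60.9 CPM (median 52.3) in CORT and 68.9 to 109.7 CPM (median 90.2) in CORT+ENZA, both below the 137 to 345 CPM (median 207) of vehicle.

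Some genes of secreted plasma proteins were lower. Most genes of coagulation and complement did not pass, as 1 of 30 tested rose, 3 fell and 26 did not pass (median -0.02). Alb was at 65179 to 103731 CPM (median 74788) in CORT and 41387 to 63426 CPM (median 50391) in CORT+ENZA, and Ttr, which carries thyroxine and retinol-binding protein, at 4811 to 6333 CPM (median 5311) and 2374 to 3056 CPM (median 2675). Neither pair of groups overlapped, with log2 fold changes of -0.65 ± 0.13 and -1.01 ± 0.10 (adjusted p = 0.00189 and 2.46e-06). The fibrinogen chain genes Fga, Fgb and Fgg fell by 0.53 ± 0.10, 0.51 ± 0.11 and 0.58 ± 0.10 (adjusted p = 0.00136, 0.00418 and 0.000454). Apcs, serum amyloid P, fell by 1.16 ± 0.13 (adjusted p = 1.38e-05). These belong to 6 of 25 acute phase genes that fell, while Orm3, Saa3 and Steap4 rose, of which Saa3 (log2 fold change 1.53 ± 0.45, adjusted p = 0.033) was lost in 11 of 22 alternatives (adjusted p over all of them 0.00598 to 0.117), 6 of them without mouse 1, 3, 4, 18, 25 or 26 (0.052 to 0.0929). Without mouse 18 its log2 fold change was 0.81. Orm3, an orosomucoid, went from 0.915 to 3.98 CPM (median 2.31) to 4.77 to 24.5 CPM (median 16), without overlap (log2 fold change 2.77 ± 0.33, adjusted p = 2.07e-05). Hnf4a, the master regulator of hepatocyte identity, fell by 0.31 ± 0.09 (adjusted p = 0.0323), a call lost in 6 of 22 alternatives (adjusted p over all of them 0.00763 to 0.078), 5 of them without mouse 1, 5, 16, 17 or 25 (0.0536 to 0.078). Of the 10 hepatocyte markers Alb, Ttr and Hnf4a fell, none rose and 7 did not pass. The lower summed marker level given above is made of these same markers and is dominated by Alb. It is therefore no separate measure of hepatocyte content. The part of hepatocyte content in these decreases was not tested.

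Of 16 tested iron and metal genes 2 rose and 3 fell (median -0.04). Hamp2, a copy of the iron hormone hepcidin, fell by 3.01 ± 0.48 (adjusted p = 0.000513), with 15.5% shared sequence. Slc30a10, a manganese exporter, fell by 1.04 ± 0.20 (adjusted p = 0.00267). Of 19 NRF2 and AhR targets 6 rose and none fell, among them Nqo1, a quinone reductase, by 0.78 ± 0.17 (adjusted p = 0.00476) and Ces1g by 1.09 ± 0.18 (adjusted p = 0.000645).

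In the cell cycle list 3 of 21 genes rose and 1 fell. Ccnd1, which encodes cyclin D1 (ENSMUSG00000070348, chromosome 7, 144929931 to 144939925), was at 13.6 to 32.7 CPM (median 22.1) in vehicle, 2.57 to 10.1 CPM (median 5.03) in CORT and 22.7 to 65.4 CPM (median 27.6) in CORT+ENZA. CORT mice were below all others (log2 fold change 2.53 ± 0.34 with ENZA added, adjusted p = 9.26e-05, and 2.22 without mouse 18, adjusted p = 9.72e-05). The proliferation markers Mki67 and Top2a rose by 2.91 ± 0.87 and 2.71 ± 0.76 (adjusted p = 0.0383 and 0.0277), and without mouse 18 their log2 fold changes were 1.00 and 1.19. Mouse 18 alone had 14.1 CPM of Mki67, against 0.331 to 1.79 CPM in the other 5, and Top2a was split alike (10.8 against 0.331 to 1.84 CPM). The Mki67 call was lost in 10 of 19 alternatives (adjusted p over all of them 0.00554 to 0.223), 6 of them without mouse 1, 2, 3, 18, 26 or 27 (0.0605 to 0.216). The Top2a call was lost in 9 of 21 alternatives (adjusted p over all of them 0.00155 to 0.0996), 4 of them without mouse 3, 18, 25 or 27 (0.053 to 0.0996).

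Outside the lists, the largest increases included Ly6d, a small surface protein, by 4.79 ± 0.75 (adjusted p = 0.000424), from 0.122 to 0.424 CPM (median 0.292) to 0.716 to 19.2 CPM (median 5.21). limma-voom did not call it (0.0592; 3.15e-10 to 0.0592 over 22 alternatives). Smpd3, a neutral sphingomyelinase, went from 0.943 to 3.64 CPM (median 2.1) to 13.7 to 21.3 CPM (median 17.5), without overlap (3.08 ± 0.35, adjusted p = 1.55e-05). Apol9a, an interferon-inducible apolipoprotein L gene, rose by 3.12 ± 0.25 (adjusted p = 3.1e-07). Igfbp2, a carrier of insulin-like growth factors, was at 331 to 648 CPM (median 361) in vehicle, 80.9 to 125 CPM (median 103) in CORT and 184 to 523 CPM (median 289) in CORT+ENZA. It was low in CORT, and the other groups overlapped (1.59 ± 0.22 with ENZA added, adjusted p = 8.02e-05).

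The largest decreases included Obp2a, an odorant-binding lipocalin, by 4.88 ± 0.81 (adjusted p = 0.000739, 11.7% shared sequence). Its CORT mice fell into 3 at 1.77 to 2.27 and 3 at 25.7 to 36.3 CPM, and mice on both drugs were at 0.164 to 1.08 CPM (median 0.512). limma-voom did not call it either (0.0639; 1.53e-09 to 0.0639 over 22 alternatives). Wfdc2, a protease inhibitor, was at 1.86 to 3.45 CPM (median 2.19) in vehicle, 8.79 to 17.9 CPM (median 12.9) in CORT and 1.6 to 5.15 CPM (median 1.72) in CORT+ENZA, so CORT mice alone were high (-2.47 ± 0.27, adjusted p = 9.48e-06). Scara5, a ferritin receptor, fell by 2.27 ± 0.37 (adjusted p = 0.000513) and Slc17a8, a vesicular glutamate transporter, by 1.64 ± 0.20 (adjusted p = 2.44e-05). Rdh16f2, a retinol dehydrogenase family member, went from 122 to 173 CPM (median 139) to 37.7 to 55.1 CPM (median 43.3) (-1.66 ± 0.10, adjusted p = 2.23e-09, 10.0% shared sequence), with vehicle at 127 to 164 CPM (median 147). There CORT and vehicle overlapped and mice on both drugs were lower.

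Leaving out mouse 18 gave 1529 called genes, 857 higher and 672 lower. In the CAR and PXR list 15 rose and 1 fell, in the conjugation list 18 and 1, in the cholesterol list 22 and 0. The cholesterol median rose to 1.36 and the interferon median dropped to 1.31. Of 143 named genes that passed with all mice, 14 did not pass without it, among them Tsc22d3, Lpl, Cyp17a1, Esr1, Mki67, Top2a and 4 genes of immune or stromal cells (Cd5l, Ccr2, Ccl5 and Col3a1). Cdkn1a, the p21 gene, was gained. It was at 4.77 to 43.3 CPM (median 8.73) in CORT and 1.92 to 36.5 CPM (median 3.64) in CORT+ENZA, where mouse 18 had the highest value, and without that mouse its log2 fold change was -2.38 (adjusted p = 0.0186, against 0.46 with all mice and 0.0186 to 0.817 over 22 alternatives).

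**Figure D4:**
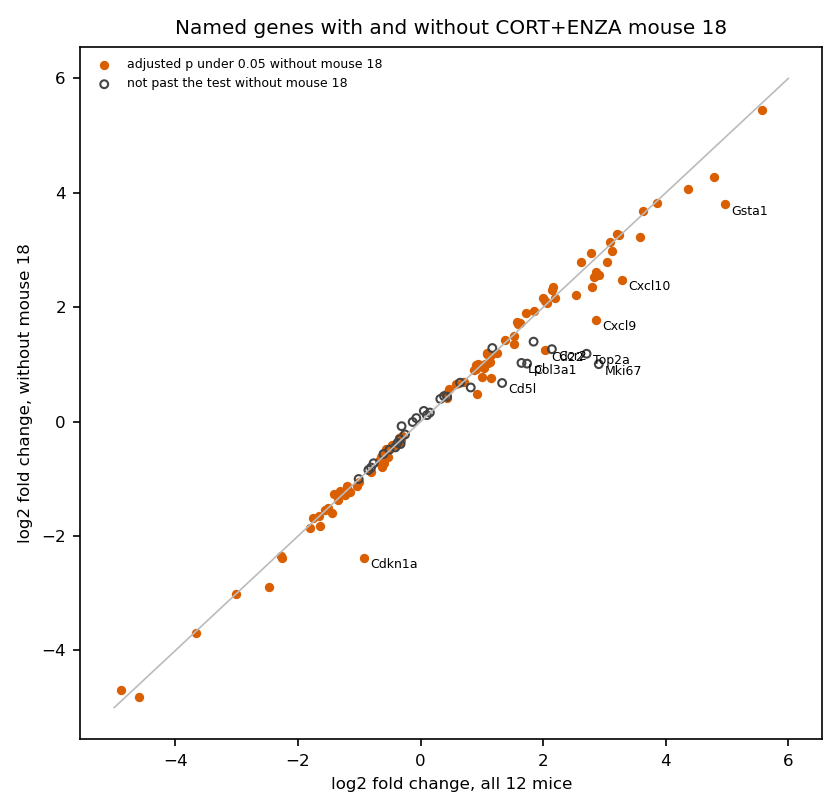
Log2 fold change of the named genes with all 12 mice (horizontal axis) and without CORT+ENZA mouse 18 (vertical axis), where each point is a gene. Most points lie close to the diagonal, and the proliferation genes Mki67 and Top2a lie below it.

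The same drug addition was compared between durations by the difference of the effects, chronic minus acute, in a fit of all 42 libraries. Qiagen columns were used to extract the acute RNA and Macherey-Nagel NucleoSpin columns the chronic RNA, so kit and duration cannot be told apart. Reads without a unique alignment also differed, at 18.6 to 22.7% in chronic and 9.34 to 12.8% in acute libraries. Of 14138 genes 179 (1.27%) differed in effect, 128 (0.905%) towards a higher and 51 (0.361%) towards a lower chronic effect. DESeq2 called 313 (232 and 81) and limma-voom 432 (248 and 184), while 25 were lower without a low-count filter and 33 without acute CORT mouse L8A. The acute addition itself called 13 genes higher (0.092%) and none lower (0.0%).

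Of the 29 interferon-stimulated genes 19 differed, all towards a higher chronic effect, and their median acute effect was 0.13. Usp18 had an acute effect of -0.03 ± 0.20 and a difference of 3.04 ± 0.31 (adjusted p = 4.58e-08). In acute mice it was at 12.4 to 17.8 CPM with CORT and 12.5 to 21.3 CPM with both drugs, ranges that overlapped. Irf7 differed by 2.68 ± 0.33 (adjusted p = 3.38e-06), Rsad2 by 2.71 ± 0.42 (adjusted p = 0.00013) and Apol9a by 2.74 ± 0.35 (adjusted p = 4.05e-06).

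In the CAR and PXR list 6 of 24 genes differed, all towards a higher chronic effect, and 5 of the 24 passed in the acute addition. Cyp2c55 had an acute effect of 2.21 ± 0.27 and a difference of 3.34 ± 0.42 (adjusted p = 3.38e-06), and Cyp3a11 an acute effect of 1.18 ± 0.23 and a difference of 2.02 ± 0.33 (adjusted p = 0.00017). For Cyp2b10 the difference of 2.08 ± 0.65 did not pass (adjusted p = 0.109), on an acute effect of 1.75 ± 0.47. Abcc3 differed by 1.89 ± 0.22 (adjusted p = 2.83e-07) and Ces2a by 1.29 ± 0.14 (adjusted p = 1.7e-07). In the conjugation list 5 genes differed and in the cholesterol list 2, Sqle by 1.97 ± 0.38 and Msmo1 by 1.35 ± 0.32 (adjusted p = 0.00216 and 0.0182).

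Differences towards a lower chronic effect held Obp2a (-5.50 ± 0.93, adjusted p = 0.000418), Cyp2c69 (-4.13 ± 0.78, adjusted p = 0.00189), Cyp2c40 (-3.31 ± 0.70, adjusted p = 0.00693) and Wfdc2 (-2.73 ± 0.36, adjusted p = 5.24e-06). Obp2a, Cyp2c69 and Cyp2c40 are uncertain because of the shared sequence given above. Apcs differed by -2.02 ± 0.51 and Ttr by -0.80 ± 0.16 (adjusted p = 0.0347 and 0.00292). For the glucocorticoid-induced genes Tsc22d3 and Fkbp5 the differences did not pass, at -0.48 ± 0.32 and -0.79 ± 0.44 (adjusted p = 0.535 and 0.449).

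**Figure D5:**
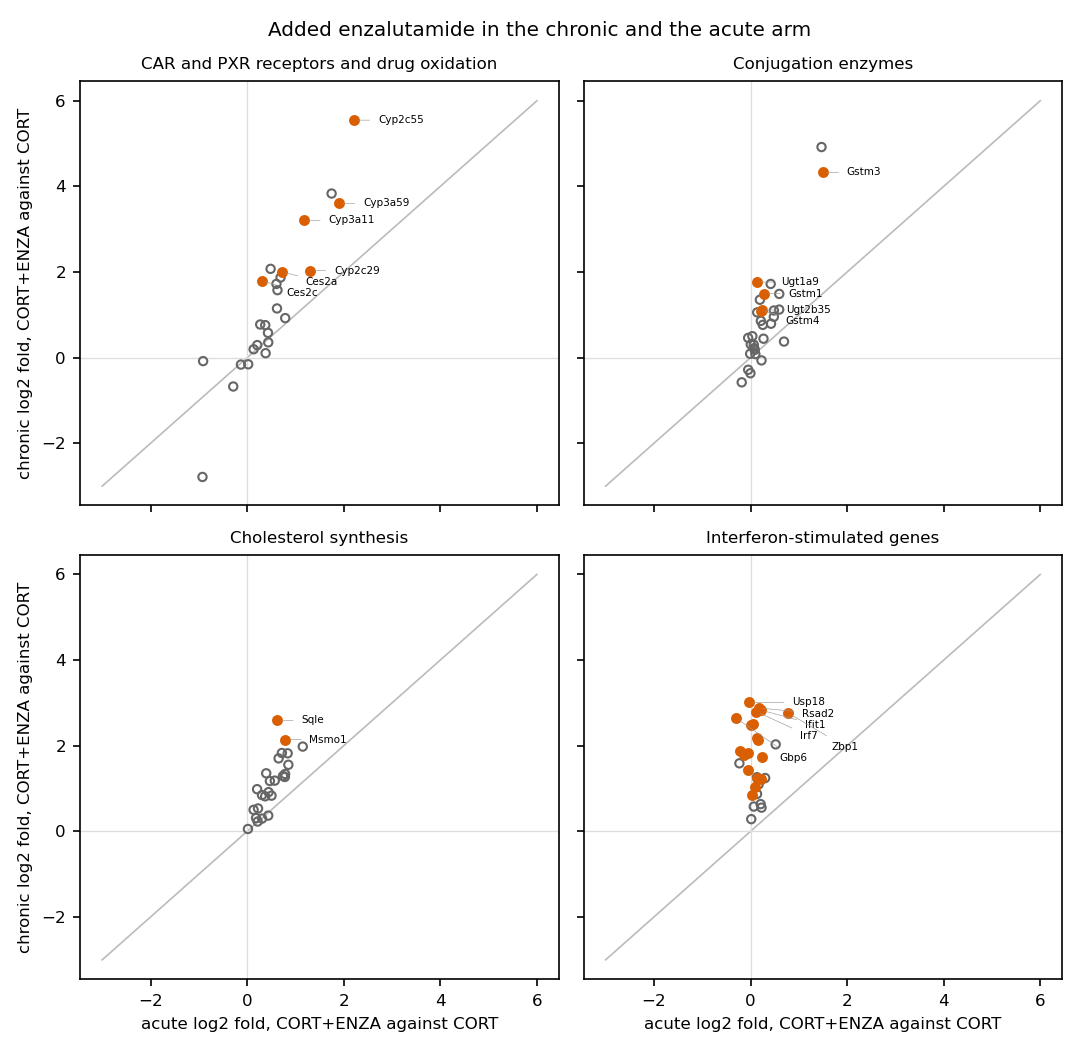
Effect of adding ENZA to CORT in acute mice (horizontal axis, log2) and in chronic mice (vertical axis, log2) for 4 gene lists, where each point is a gene and filled points passed the test of the difference. Interferon-stimulated genes gather near 0 on the acute axis and mostly well above it on the chronic axis, while CAR and PXR genes spread along both.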

How the data were processed

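Poly(A)-enriched mRNA of whole liver was sequenced, and the files hold raw read counts per gene that the authors deposited, without normalization or pooling of mice. STAR 2.7.3a, HTSeq 0.12.4, FastQC and MultiQC are named in the submitters' processing notes, with mm10 (GRCm38) as the build. The sources used here do not give the annotation release or the strand setting, so overlapping and antisense genes are uncertain. Gene symbols and coordinates came from GENCODE M21 for 55480 of 55573 gene IDs, and 5 summary lines naming no gene were left out.

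Counts of the 18 chronic libraries were fitted in R 4.3.3 with edgeR 4.0.16 (robust quasi-likelihood, TMM, filterByExpr with minimum count 10 and total 15, group means without covariate). P-values were Benjamini-Hochberg adjusted over all genes tested and called at 0.05. SE is the size of the log2 fold change divided by the root of its F value. Chronic and acute effects were compared in 1 fit of 42 libraries. The scripts were tested on simulated data. Chi-square per degree of freedom between libraries of a group was 14.5 or more, so no pair looked like repeats of the same library. The labels give each library as a mouse and name no cage or batch.

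Alternatives were RLE size factors, no filter, a stricter filter (1 CPM in 6 libraries), DESeq2 1.42.0 and limma-voom (limma 3.58.1). Others were fits of only the groups compared, a term splitting low from high mouse numbers, the abundant genes left out and each mouse left out. Named genes passed the test with at least 5 CPM and no overlap (the 15 largest changes each way, without predicted genes), or were among the 4 smallest p of a list, or were fixed receptors and targets. Further list members were named after their values were seen, and a few genes are not reported here. The gene lists were chosen with earlier results of these data known. A gene is called uncertain where 10% or more of the 50-base stretches of its longest transcript occur in another gene. Promoters came from RefSeq, and motifs other than those given above were also searched. In the CAR and PXR list the nuclear receptor half-site AGTTCA stood in 3 of 21 promoters (14.3%) against 8.87% of tested genes. Its repeat with 4 bases between stood in 0 of the 21 and in 0 of 9058. The glucocorticoid half-site AGAACA stood in 6 of the 21 (28.6%) against 10.6%. With 6 mice a group, precision is set by the spread between mice more than by depth.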

Additional observations from a re-analysis of the deposited data

Results flagged for a closer look

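Mouse 18 of the CORT+ENZA group stood far from the other 5 in the summed level of 8 gene lists. It was highest for interferon-stimulated genes (1309 CPM), cell cycle genes (276 CPM) and Kupffer cell markers (928 CPM). Its sums were lowest for transporters (5078 CPM), bile acid synthesis (3422 CPM), amino acid catabolism (22480.4 CPM), circadian clock genes (652 CPM) and pericentral genes (4665 CPM). Other mice far from their group were CORT mouse 3 for glucocorticoid-induced genes (8318 CPM) and CORT mouse 1 for cell cycle genes (156 CPM). B cell markers summed to 58.3 CPM in CORT+ENZA mouse 5 and 22.2 CPM in CORT mouse 26, and cholangiocyte markers to 214 CPM in CORT+ENZA mouse 5. These 13 came from 88 groups of values examined, where chance gives about 1 in 20. The lists were read in the same mice, and 8 of the 13 are mouse 18. The groups are therefore not independent, and the 13 cannot be weighed against that rate.

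The effect of adding ENZA differed between chronic and acute mice, by the test of the difference, for 40 of the genes chosen by rule, of which 8 are given. The rule chose 131 genes, most of them for their change in the chronic comparison, which is part of that difference. A high count is therefore built in by the choice. Over all genes 179 of 14138 (1.27%) differed. The differences on the log2 scale were 3.04 for Usp18, 2.68 for Irf7, 2.74 for Apol9a, 3.34 for Cyp2c55, 1.89 for Abcc3 and 1.29 for Ces2a. They were -2.73 for Wfdc2 and -1.37 for Rdh16f2.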

How the results depend on the processing

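No paired analysis was possible because the mouse numbers of the chronic groups compared do not repeat between them, and a replicate block therefore had no pairs. The count of genes changed with added ENZA (1552) was 1104 without a low-count filter, 2008 with DESeq2 and 2171 with limma-voom, within 1.5 times. Leaving out 1 mouse, or mice 18 and 11 together (chosen after seeing the data), gave 1136 to 1721 genes, 666 to 974 higher and 465 to 747 lower. Genes risen were then 14 to 16 in the CAR and PXR list, 15 to 18 in the conjugation list, 16 to 22 in the cholesterol list and 26 to 28 in the interferon list. Among 143 named genes that passed, 4 to 21 calls were lost under a setting where any was, and no direction turned. The chronic minus acute difference moved more. DESeq2 called 313 genes (232 higher, 81 lower), limma-voom 432 (248 and 184), and 25 lower without the filter. Leaving out 1 library gave 141 to 208 genes, 102 to 144 higher and 33 to 67 lower, with 33 lower without acute CORT mouse L8A. The causes were not tested. Genes near 1 CPM, among them several immune cell markers, are limited by depth.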
